A study of Mus musculus with 12 samples.

Results

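The 12 libraries of the series were compared by their level of Actg2, the gamma actin of visceral smooth muscle: 7 libraries held Actg2 at 20 CPM or more (the count divided by the library's total and scaled to a common size) and 5 held less. These 12 libraries are the whole series, and the 2 classes were chosen by the measured Actg2 level and are not groups of the study. All came from gonadal (peri-uterine) white fat of pregnant mice at the stage labelled E17.5, and the labels state no age for the mice. Of the 3 groups of 4 libraries, WT vehicle carried the genotype labelled Tnfrsf11a (Rank) without Foxn1 Cre and received vehicle, KO vehicle carried the same label with Foxn1 Cre and received vehicle, and KO Treg carried the knockout genotype and received the treatment labelled Treg. Foxn1 Cre is known for its activity in thymic epithelium, so the fat measured here is not the tissue that its driver is known to target. Tnfrsf11a, the receptor named by the knockout label, read between 4.47 and 10.6 CPM in the 12 libraries with no separation by genotype, and counts at the end of a transcript do not check a deletion elsewhere in the gene or in another tissue. Foxn1 was at 0 in all 12 libraries.

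Smooth muscle cells contract when calcium and calmodulin activate myosin light chain kinase, which lets smooth muscle myosin pull on thin filaments of actin, tropomyosin and calponin. The filaments are held by dense bodies and by adhesion plaques at the membrane, which are joined by desmin intermediate filaments. Actg2 is the actin typical of the wall of hollow organs such as gut, bladder and uterus, while Acta2 is the actin typical of blood vessel walls, and both kinds of muscle share most other contractile genes. Peri-uterine fat lies along the uterine horns and their supporting ligament, which itself holds smooth muscle. In bulk tissue, more cells of a type and more RNA per cell cannot be told apart.

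Actg2 itself (chr6:83512905-83536265, mm10, minus strand) ranged from 0.456 to 232 CPM, and these values chose the classes. The 4 KO vehicle libraries read 4.91, 6.27, 4.14 and 42.8 CPM, in the order of their numbers. The KO Treg libraries read 38.3, 72.9, 0.456 and 25.6 CPM. The WT vehicle libraries read 0.694, 95.2, 232 and 78.0 CPM. Each group thus held both classes: 3 of 4 WT vehicle libraries, 1 of 4 KO vehicle libraries and 3 of 4 KO Treg libraries were high. Just inside the limit stood KO Treg 4 at 25.6 CPM and just outside it KO vehicle 2 at 6.27 CPM, with no library between them. The lowest library, KO Treg 3, held 3 Actg2 counts. Of 1147 windows of 30 bases in the last 500 bases of Actg2 transcripts, 23 also occur in other genes, 13 of them in the related actin Actc1, and for Acta2 none do.

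**Figure D1:**
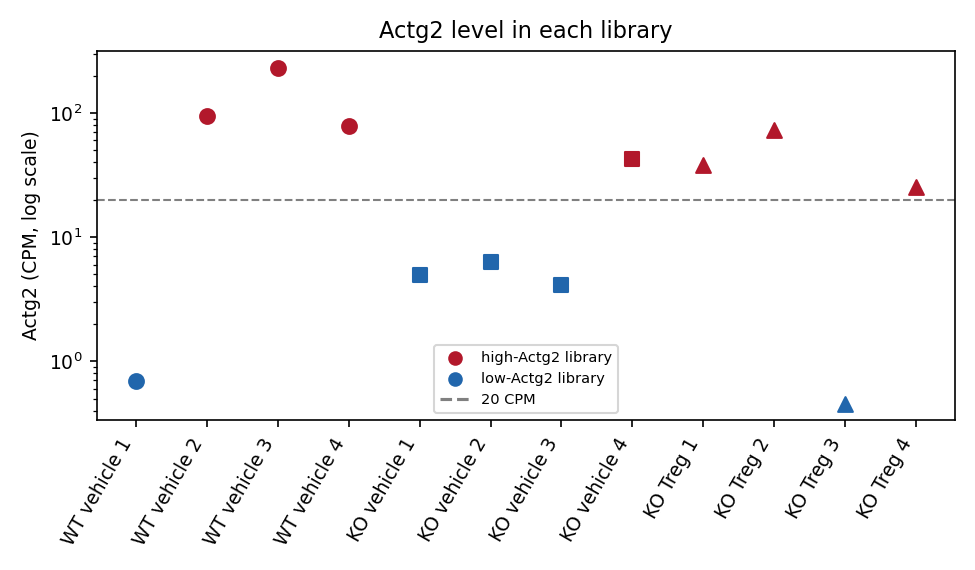
Actg2 level of each of the 12 libraries in CPM on a log axis, coloured by class, with the limit of 20 CPM as a dashed line. The gap between 6.27 and 25.6 CPM separates the 5 low from the 7 high libraries, and every group has libraries on both sides of it.

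Libraries held 5551967 to 12972655 counts, 6583263 to 12972655 in the low class and 5551967 to 9635532 in the high class. The classes also differed in Ucp1, the uncoupling protein of brown and beige fat: the 3 libraries with the most Ucp1 (WT vehicle 1 at 1886 CPM, KO vehicle 2 at 829 CPM and KO vehicle 3 at 204 CPM) were all in the low class, and no high library exceeded 48.8 CPM. KO vehicle 1 held 10.1 CPM of Prl3b1, a placental lactogen, and KO Treg 2 held 24.9 CPM, 1 library of each class. The sample titles carry numbers of 2 series, and the higher one holds WT vehicle 3 and 4 and KO Treg 3 and 4. Adipoq, the adipocyte hormone adiponectin, lay between 4066 and 5653 CPM in all libraries, so the label of adipose tissue held in both classes.

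With group as a term, 7 of 12174 tested genes differed between the classes by edgeR's quasi-likelihood test (adjusted p under 0.05), all of them higher in the high-Actg2 libraries, which is 0.0575% of the genes tested. They were Pcp4, Pcp4l1, Gria1, Fbxl22, Pgm5, Sh3bgr and Pdlim3. No gene was called lower; at an unadjusted p under 0.05, edgeR had 445 genes (3.66%), 223 higher (1.83%) and 222 lower (1.82%), and DESeq2 called 43 higher and 6 lower. Because Actg2 made the classes, such a call says only that another gene varied with Actg2 among these 12 libraries, and Actg2 was left out of the test. No gene was called without WT vehicle 1, and none without the 3 libraries richest in Ucp1. Leaving out KO vehicle 1, 2 or 3 left 3, 2 and 1 genes called, leaving out KO Treg 1 or WT vehicle 2 left 3, and leaving out KO Treg 4 left 16.

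Pcp4 (chr16:96467606-96525793) encodes a small protein that binds calmodulin. It was at 0 in KO vehicle 1 and 3, KO Treg 3 and WT vehicle 1, and at 0.220 CPM in KO vehicle 2. In the 7 high libraries its lowest, median and highest levels were 1.75, 6.52 and 11.1 CPM. The classes did not overlap in the pooled data, and so in none of the 3 groups. The high libraries held 340 Pcp4 counts and the low ones 2, a ratio per count sequenced of 136 (95% exact interval 37.3 to 1130, counting error only), with an adjusted p of 0.00321 by edgeR. Exons of Igsf5 overlap those of Pcp4 on the same strand, and Igsf5 itself had at most 2 counts in any library. Of 703 windows of 30 bases in the last 500 bases of Pcp4 transcripts, 216 also occur in Igsf5. How reads that fit both genes were counted was not checked. Pcp4 passed the test whichever single library was left out, except WT vehicle 1 (adjusted p = 0.0864).

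Pcp4l1 (chr1:171173262-171196268), a relative of Pcp4 with a similar calmodulin-binding motif, read 2.75, 3.52 and 2.87 CPM in KO vehicle 1 to 3, 2.28 CPM in KO Treg 3 and 5.40 CPM in WT vehicle 1. In the high libraries it ran from 6.18 CPM through a median of 17.4 to 36.0 CPM. Every high library was above every low one. The log2 fold change was 2.01 ± 0.31 (SE; adjusted p = 0.0371, edgeR). Pcp4l1 lost its call without any 1 of KO vehicle 1 to 4, KO Treg 1 or 3 or WT vehicle 1 or 2, with adjusted p up to 0.507.

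Gria1 (chr11:57011387-57330244) encodes a subunit of the AMPA type of glutamate receptor, best known from neurons. The low libraries held 1 Gria1 count in all, in KO vehicle 2, and the other four were at 0. The 7 high libraries held 144 counts, from 0.467 CPM through a median of 2.74 to 3.96 CPM. The ratio was 115 (95% exact interval 20.3 to 4580, counting error only; adjusted p = 0.0143 by edgeR). A level under 3 counts in a library could not be told from 0 at this depth. The call did not hold without any 1 of KO vehicle 2, 3 or 4 or of WT vehicle 1.

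The other 4 called genes are known from striated or smooth muscle. Fbxl22 (chr9:66508459-66514593) encodes an F-box protein found at the muscle Z-disc, and read 1.32, 2.31 and 1.38 CPM in KO vehicle 1 to 3, 0.304 CPM in KO Treg 3 and 1.46 CPM in WT vehicle 1. In the high class it ran from 1.75 CPM (KO Treg 4) through 7.17 to 14.4 CPM, so its classes overlapped by this 1 library, while inside each group they did not. Its log2 fold change was 2.69 ± 0.38 (SE; adjusted p = 0.0143, edgeR), and the call was lost without KO vehicle 3 (adjusted p = 0.0518) or WT vehicle 1 (0.369). Exons of Herc1 overlap Fbxl22 on the opposite strand, and no source used here states the strand setting of the counts. Opposite-strand exons also overlap Des, Tagln, Smtn, Mylk, Rspo3, BC051019, Mybpc1 and Cacna1h, which are described below.

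Pgm5 (chr19:24683016-24861855) encodes aciculin, a protein of muscle adhesion plaques. It read 12.2, 13.3 and 14.5 CPM in KO vehicle 1 to 3, 19.0 CPM in KO Treg 3 and 16.3 CPM in WT vehicle 1, against 25.2, 65.9 and 96.3 CPM as the lowest, median and highest of the high class. Its log2 fold change was 1.68 ± 0.26 (SE; adjusted p = 0.0416, edgeR). Pgm5 thus separated the classes, with KO Treg 4 again the lowest high library. It lost its call without any 1 of KO vehicle 1 to 4, KO Treg 1 or WT vehicle 1 or 2 (adjusted p up to 0.369). Pdlim3 (chr8:45885461-45919548), whose product binds alpha-actinin, read 3.35, 4.73, 4.78, 4.25 and 6.17 CPM in the low libraries in the same order. Its high libraries ran from 8.52 CPM through 25.9 to 70.8 CPM, and its log2 fold change was 2.29 ± 0.36 (SE; adjusted p = 0.0416). Sh3bgr (chr16:96200450-96228935), a glutamic acid-rich protein with a thioredoxin-like fold that is expressed in muscle, read 1.68, 2.09, 2.76, 1.06 and 1.77 CPM in the low libraries. It ran from 4.32 CPM through 7.90 to 20.5 CPM in the high ones, with a log2 fold change of 2.39 ± 0.39 (SE; adjusted p = 0.0416). Both genes separated the classes in full, and WT vehicle 3, the library with the most Actg2, was the highest for each. Pdlim3 and Sh3bgr lost their calls without any 1 of KO vehicle 1 to 4, KO Treg 1 or 3 or WT vehicle 1 or 2 (adjusted p up to 0.602 and 0.656).

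**Figure D2:**
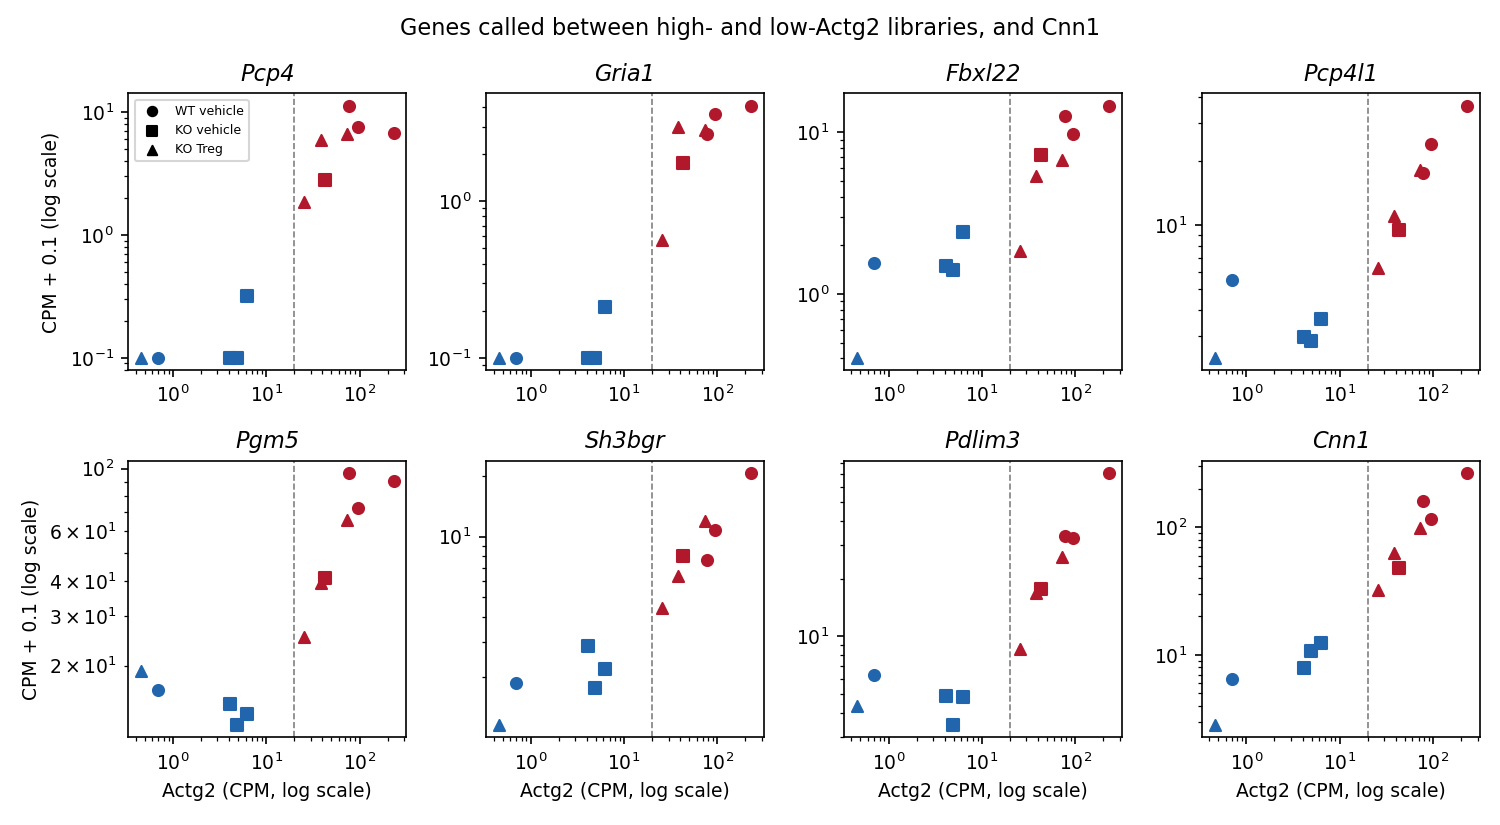
Level of the 7 called genes and Cnn1 against Actg2 in the 12 libraries, both in CPM on log axes (0.1 CPM added on the vertical axis so that values of 0 can be drawn), with symbols for the groups and the 20 CPM limit dashed. For Pcp4 and Gria1, 4 of the 5 low libraries lie at 0; Fbxl22 alone has a high library, KO Treg 4 at 1.75 CPM, inside the range of the low ones.

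Classes that did not overlap in CPM were seen for 47 genes with the high class above (0.386% of those tested) and for 14 with it below (0.115%). Of the 7 called genes, all but Fbxl22 were among the 47. The 47 held 6 of the 16 genes of the contractile list and 4 of the 20 of the dense body list. Cnn1 encodes calponin 1, an actin-binding regulator of contraction: it read 10.7, 12.2 and 7.86 CPM in KO vehicle 1 to 3, 2.73 CPM in KO Treg 3 and 6.32 CPM in WT vehicle 1. Its high class ran from 32.3 CPM through 98.4 to 265 CPM. The log2 fold change was 3.76 ± 0.60 (SE), with an adjusted p of 0.122 by edgeR. Myh11, the smooth muscle myosin heavy chain, had means of 196 ± 86.9 CPM (SD, n = 7) in the high and 41.4 ± 8.67 CPM (SD, n = 5) in the low class, with no overlap (28.9 to 49.6 against 67.9 to 288 CPM). Its log2 fold change was 2.09 ± 0.36 (SE; adjusted p = 0.122, edgeR). Des, the intermediate filament protein desmin, ran from 10.4 to 19.8 CPM in the low and from 26.1 to 170 CPM in the high class, with a log2 fold change of 2.0 ± 0.37 (SE; adjusted p = 0.144). These 3 genes separated the classes in the pooled libraries, and therefore also inside each group.

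The level of Actg2 as a continuous term gave more calls than the 2 classes. Of 12174 genes, 31 rose with log2 Actg2 CPM (0.255%) by edgeR's quasi-likelihood test with group as a term, and 0 fell; all 7 genes called between the classes were among the 31. The slope is the log2 change of a gene for each doubling of Actg2 CPM + 0.5. The added 0.5 shortens the Actg2 scale in the libraries lowest in it, so a slope of 1 is not exact proportion to Actg2. Cnn1 rose by 0.74 ± 0.03 (SE; adjusted p = 9.35e-09), Myh11 by 0.40 ± 0.04 (adjusted p = 4.92e-04), Des by 0.39 ± 0.06 (adjusted p = 0.0153) and Tagln, the actin-binding protein transgelin, by 0.43 ± 0.05 (adjusted p = 4.21e-04). Acta2, the actin shared with vessels, rose by 0.34 ± 0.04 (adjusted p = 0.00167), although its 2 classes overlapped (101 to 328 against 195 to 841 CPM). The steepest slopes were those of Gria1 at 1.18 ± 0.16 and Pcp4 at 1.14 ± 0.16. Without KO vehicle 4 both were 0.98. The slopes of the other 29 genes lay between 0.17 (Flna) and 0.80 (BC051019).

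**Figure D3:**
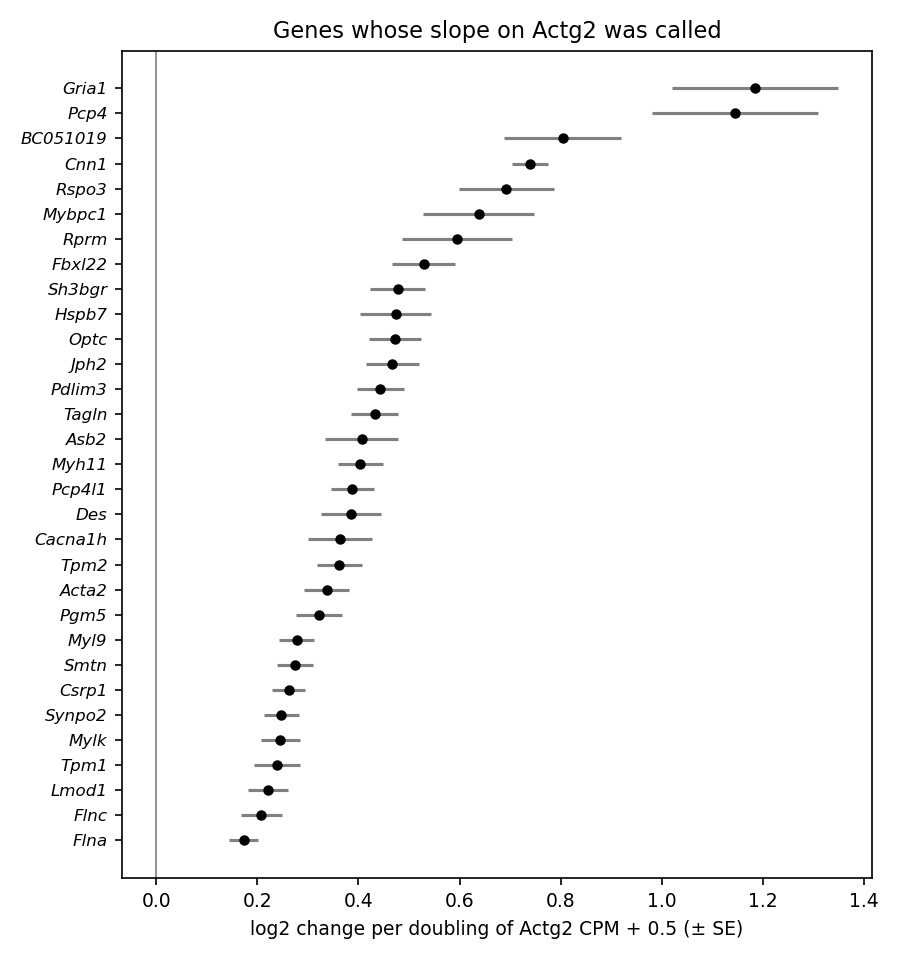
Log2 change per doubling of Actg2 CPM + 0.5 (points, bars 1 SE) for the 31 genes whose slope on Actg2 was called. Gria1 at 1.18 and Pcp4 at 1.14 are the steepest, with the widest error bars, and Flna at 0.17 the least steep.

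All 31 slopes stayed above 0 in each of the 17 other fits tried, among them each library left out in turn, but the number called depended on the low end. Without WT vehicle 1, 8 genes were called, all of them among the 31: Cnn1, Pcp4l1, Sh3bgr, Fbxl22, Myh11, Pdlim3, Optc and Tagln. Without the 3 libraries richest in Ucp1, 4 were called: Cnn1 (slope 0.79, adjusted p = 1.31e-04), Sh3bgr (0.62), Pcp4l1 (0.49) and Acta2 (0.32). Without KO Treg 3, the library with the least Actg2, 53 genes were called, 36 rising and 17 falling. In the 8 libraries of the lower number series alone, 19 genes were called, all rising, and 18 of them were among the 31. Over the 17 other fits, Cnn1 and Pcp4l1 were called in all 17. Flnc and Tpm1 were called in 4 of them, Lmod1 in 7 and Rprm in 8.

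Many genes for contractile proteins rose with Actg2. Of the 16 genes of the contractile list (Actg2 left out), 10 had a called slope, all rising, against 0.255% of all genes: Cnn1, Tagln, Myh11, Tpm2, Acta2, Myl9, Smtn, Mylk, Tpm1 and Lmod1. Mylk, the light chain kinase, read 313 to 467 CPM in the low class and 576 to 1589 CPM in the high class, with a slope of 0.25 ± 0.04. Smtn, the smooth muscle protein smoothelin, had a slope of 0.27 ± 0.04 and Lmod1, which nucleates actin filaments in smooth muscle, 0.22 ± 0.04. Between the 2 classes the list had a median log2 fold change of 1.18, beside -0.01 over all genes tested, with 16 of 16 above 0 and 0 called. Without the 3 libraries richest in Ucp1 the median was 1.03 and 13 of 16 were above 0, and without WT vehicle 1 they were 0.93 and 14 of 16. Myl6, the light chain that most cell types express, was lowest in the list at a log2 fold change of 0.05.

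Of the 20 genes for dense bodies and intermediate filaments, 6 had a called slope, all rising: Pdlim3, Des, Pgm5, Csrp1, Synpo2 and Flna. Csrp1, a LIM protein of actin bundles, rose by 0.26 ± 0.03 per doubling, Synpo2, an actin-bundling protein of the Z-disc, by 0.25 ± 0.03 and Flna, the broadly expressed actin crosslinker filamin A, by 0.17 ± 0.03. The median log2 fold change of this list between the classes was 0.54, with 19 of 20 above 0 and 2 called (Pgm5 and Pdlim3). The median was 0.30 both without the 3 libraries richest in Ucp1 (18 of 20 above 0) and without WT vehicle 1 (16 of 20), with 0 called in either fit. The 2 lists were chosen with results of these libraries known, so their direction is no independent evidence.

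**Figure D4:**
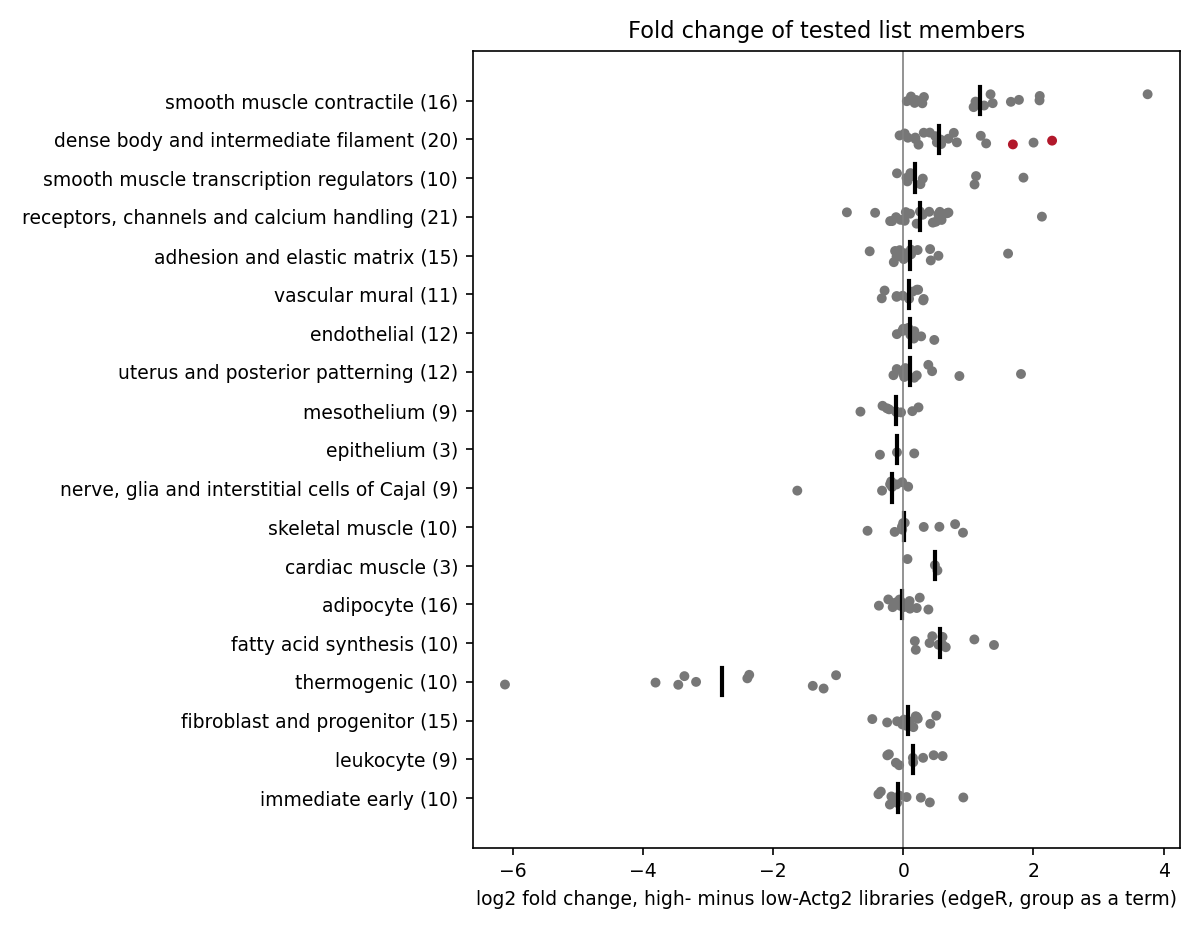
Log2 fold change between high- and low-Actg2 libraries of each tested member (points) of the gene lists, with the number tested in brackets, black bars at the medians and called genes in red. All 16 contractile genes and 19 of 20 dense body genes lie above 0, the vascular mural, endothelial and adipocyte lists lie around 0, and all 10 thermogenic genes lie below 0.

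The other 15 of the 31 genes were in none of the lists, and 5 of them (Pcp4, Pcp4l1, Gria1, Fbxl22 and Sh3bgr) are described above. Rspo3, a secreted amplifier of Wnt signalling, rose by 0.69 ± 0.09 per doubling, with 131 counts in the high and 18 in the low class. Optc, the extracellular matrix protein opticin, rose by 0.47 ± 0.05 and read 4.39 to 6.90 CPM in the low and 15.8 to 70.4 CPM in the high class. Jph2, junctophilin 2, which holds the plasma membrane to the calcium store in muscle, rose by 0.47 ± 0.05. Asb2, part of a ubiquitin ligase that acts on filamins, rose by 0.41 ± 0.07, and Flnc, the muscle filamin, by 0.21 ± 0.04. Hspb7, a small heat shock protein of muscle, rose by 0.47 ± 0.07, Mybpc1, a myosin-binding protein of slow striated muscle, by 0.64 ± 0.11, Cacna1h, a T-type calcium channel, by 0.36 ± 0.06, and Rprm by 0.59 ± 0.11. BC051019, a gene with no known role given here, rose by 0.80 ± 0.12 from 4 counts in the low to 116 in the high libraries. Jph2, Flnc, Hspb7 and Mybpc1 are best known from cardiac or skeletal muscle.

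After group means were removed, the genes most like Actg2 over the 12 libraries by Pearson correlation of log2 CPM were Cnn1 (0.99), Rspo3 (0.98), Pcp4l1, BC051019, Sh3bgr and Jph2 (each 0.96), and Fbxl22, Pcp4, Optc and Tagln (each 0.95). This is a description without a test, since all the values come from the same libraries. The 0.95 of Pcp4 includes the 4 libraries where it was at 0.

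Promoters of the 31 genes were searched for the CArG box, the motif known to bind serum response factor, an activator of smooth muscle genes. RefSeq promoters (GRCm38.p6, 250 bases before to 50 after each start) matched 25 of the 31 genes. The promoters of a whole chromosome were left out of the search. Of the 29 promoters matched, 3 (10.3%) held the box on either strand. The box was in 159 of 11948 searched promoters of tested genes (1.33%) and in 535 of all 32851 searched (1.63%). The 3 are printed here because they are the promoters, among genes that rose with Actg2, in which these letters occur; the box is in capitals and the start site lies 50 bases from the right end. Fbxl22 is at chr9:66514544-66514843 (minus strand, box 222 bases upstream), Asb2 at chr12:103355952-103356251 (minus strand, 64 bases upstream) and Myl9 at chr2:156775214-156775513 (plus strand, 161 bases upstream).
Fbxl22: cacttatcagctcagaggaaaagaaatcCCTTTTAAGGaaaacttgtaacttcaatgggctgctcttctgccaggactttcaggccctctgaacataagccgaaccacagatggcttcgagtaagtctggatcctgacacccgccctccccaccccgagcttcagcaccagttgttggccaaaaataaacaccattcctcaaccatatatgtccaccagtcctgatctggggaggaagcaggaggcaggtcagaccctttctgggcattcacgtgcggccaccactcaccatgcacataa
Asb2: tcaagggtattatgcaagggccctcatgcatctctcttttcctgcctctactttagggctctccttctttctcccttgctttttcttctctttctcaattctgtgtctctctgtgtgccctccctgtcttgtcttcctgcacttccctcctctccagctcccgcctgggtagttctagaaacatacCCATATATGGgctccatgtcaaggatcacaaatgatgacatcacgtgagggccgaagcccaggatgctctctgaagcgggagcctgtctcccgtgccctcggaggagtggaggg
Myl9: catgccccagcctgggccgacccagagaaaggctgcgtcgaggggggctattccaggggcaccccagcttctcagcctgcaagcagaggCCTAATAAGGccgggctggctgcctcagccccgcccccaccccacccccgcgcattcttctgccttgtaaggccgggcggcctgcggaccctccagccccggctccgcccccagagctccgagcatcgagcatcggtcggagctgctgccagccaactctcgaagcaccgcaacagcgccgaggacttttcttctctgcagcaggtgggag
Myl9, a regulatory light chain of smooth muscle myosin, rose by 0.28 ± 0.03 per doubling. Of 17 matched promoters of the contractile list, 3 (17.6%) held the box, those of Cnn2, Myl6 and Myl9. Cnn2 and Myl6 had no called slope, so the box was not confined to genes that rose with Actg2. A match describes these letters only and is not a shown binding site. Srf, which encodes the factor, had a log2 fold change of 0.11 ± 0.17 between the classes (adjusted p = 0.999, edgeR), and Myocd, its smooth muscle coactivator, 1.85 ± 0.58 (adjusted p = 0.901), with 0.359 to 1.98 CPM in the low and 2.22 to 9.96 CPM in the high class, which did not overlap.

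The lists for receptors, channels and calcium handling and for adhesion and elastic matrix held no gene with a called slope or a call between the classes; Gria1, Cacna1h, Jph2 and Optc, described above, were in neither list. Of 21 tested receptor, channel and calcium genes, 15 were above 0, with a median log2 fold change of 0.26, and 0.10 without the 3 libraries richest in Ucp1, with 12 above 0. The highest was Kcnmb1, the smooth muscle subunit of the large-conductance potassium channel, at 2.13 ± 0.48 (adjusted p = 0.197, edgeR), and the lowest Adra1a, an alpha-1 adrenergic receptor, at -0.87 ± 0.33 (adjusted p = 0.999). Oxtr, the oxytocin receptor, abundant in late pregnant myometrium, read 138 to 465 CPM in the low and 119 to 571 CPM in the high class, which overlapped (log2 fold change 0.56 ± 0.56, adjusted p = 0.999). Of 15 tested genes for adhesion and elastic matrix, 10 were above 0, with a median of 0.11, and 0.07 with 8 above 0 without those libraries. Itga8, an integrin of smooth muscle, was the highest at 1.61 ± 0.45 (adjusted p = 0.575).

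No gene of the vascular mural and endothelial lists was called by these tests, which does not show that none moved with Actg2. Acta2, the actin typical of blood vessel walls, was in the contractile list and had a called slope. Of 11 tested vascular mural genes, 6 were above 0, with a median log2 fold change of 0.09, 0 called, and 0 at an unadjusted p under 0.05. Their summed level was 309 to 415 CPM in the low and 318 to 380 CPM in the high class. Notch3 and Rgs5, markers of vascular smooth muscle and pericytes, had log2 fold changes of 0.21 ± 0.15 and 0.23 ± 0.22 (both adjusted p = 0.999, edgeR), the latter turning to -0.10 without KO Treg 3. Of 12 endothelial genes 9 were above 0, with a median of 0.10 and 0 called. At an unadjusted p under 0.05 by edgeR 1 of them was higher, as were 223 of all 12174 genes (1.83%). Pecam1, an endothelial adhesion protein, had a log2 fold change of 0.08 ± 0.12, which was -0.013 without the 3 libraries richest in Ucp1.

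Lists for other tissues near the uterus had no call in either fit. The 12 tested genes of uterus and posterior patterning had a median log2 fold change of 0.11, which turned to -0.05 without the 3 libraries richest in Ucp1 and to -0.03 without WT vehicle 1, with 5 of 12 above 0 in both fits. Their summed level was 229.5 to 314 CPM in the low and 266 to 344 CPM in the high class. Epithelial genes were scarce: 3 of 17 passed the filter on low counts, and the list summed to 13.95 to 33.9 CPM in the low and 9.57 to 35.6 CPM in the high class. The 9 tested mesothelial genes had a median of -0.12, with 2 above 0, and -0.49 without the 3 libraries richest in Ucp1. The 9 tested genes of nerve, glia and interstitial cells of Cajal had a median of -0.17, with 1 above 0, which turned to 0.06, with 5 above 0, both without those libraries and without WT vehicle 1. The 10 tested skeletal muscle genes were split 5 and 5 around 0, with a median of 0.01, and without the libraries richest in Ucp1 10 of 13 were above 0, with a median of 0.82. They had sums of 79.0 to 149.9 CPM in the low and 31.3 to 186 CPM in the high class. The 16 adipocyte genes had a median of -0.02, which turned to 0.16 without the libraries richest in Ucp1 and to 0.10 without WT vehicle 1.

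Thermogenic genes were the list that lay farthest below 0. All 10 had a log2 fold change below 0, with a median of -2.79 and 0 called; 5 were lower at an unadjusted p under 0.05 (Dio2, Pdk4, Cpt1b, Cox7a1 and Otop1), as were 222 of all 12174 genes (1.82%). Their summed level ran from 96.0 to 5687 CPM in the low and from 111 to 481 CPM in the high class, so the ranges overlapped and the low class held both the lowest and the highest libraries. Ucp1 had a log2 fold change of -6.13 ± 3.04 (adjusted p = 0.999, edgeR), and 2.62 without the 3 libraries richest in Ucp1. These 3 libraries were picked for their Ucp1 and were all in the low class. A rise of Ucp1, and of genes that vary with it, was therefore fixed by that choice. Without those libraries the thermogenic median was 0.77, with 8 of 9 tested genes above 0, and without WT vehicle 1 alone it was -1.02. The 10 genes of fatty acid synthesis were all above 0, with a median of 0.57 and 0 called, and a median of 1.24 without the 3 libraries richest in Ucp1. Fasn, fatty acid synthase, ranged from 586 to 11810 CPM in the low and 2074 to 19540 CPM in the high class. The part of these fat cell programmes in the calls for muscle genes was not tested. Without the 3 libraries richest in Ucp1, 4 of the 31 called slopes stayed called (Cnn1, Sh3bgr, Pcp4l1 and Acta2). Between the classes no gene was called without those libraries, which left no low library of WT vehicle.

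Inside each group the high libraries lay above the low ones for the same genes, as they must where the pooled classes do not overlap. Cnn1 was 6.32 CPM in the low WT vehicle library and averaged 180 CPM in the other three, was 47.8 CPM in the high KO vehicle library against a mean of 10.2 CPM in the other three, and was 2.73 CPM in the low KO Treg library against a mean of 64.7 CPM. Myh11 gave 49.0 against 258 CPM, 43.0 against 124 CPM and 28.9 against 158 CPM in the same order of groups, low before high. Acta2 and Fbxl22, whose classes overlapped in the pooled libraries, had no overlap inside either number series. For Cnn1, Myh11, Des and the other called genes this follows from the pooled libraries and adds nothing. A test of whether the difference between the classes varied by group called 0 genes by edgeR, with 474 at an unadjusted p under 0.05 (3.89% of 12174). With 1 library of a class in every group, this test had little to work with and does not show that the groups were alike.

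The classes were spread unevenly over the groups, which bears on the study's own comparisons of genotype and treatment. The number series were uneven too: all 4 KO vehicle libraries were of the lower one, while WT vehicle and KO Treg held both. In comparisons with KO vehicle, group and number series thus cannot be fully told apart. Actg2 averaged 101.5 ± 96.3 CPM (SD, n = 4) in WT vehicle and 14.5 ± 18.9 CPM (SD, n = 4) in KO vehicle. The KO Treg mean was 34.3 ± 30.2 CPM (SD, n = 4), with overlapping ranges. Between KO vehicle and WT vehicle, edgeR called 34 of 12175 genes (0.279%), with 1514 at an unadjusted p under 0.05. The number called ran from 1 to 125 when 1 library was left out (1 without KO vehicle 1 or 2 or WT vehicle 3, 125 without WT vehicle 4), and DESeq2 called 259. None of the 16 contractile genes was called; 14 had a log2 fold change below 0, with a median of -0.98. With the Actg2 class as a further term, 1 gene stayed called (Pcolce2, an enhancer of procollagen processing), which is 0.00821%, and 1238 had an unadjusted p under 0.05. The contractile median was -0.21, with 11 of 16 below 0. Cnn1 had a log2 fold change of -2.82 without and -0.57 with the class, Myh11 -1.73 and -0.59, Tagln -1.46 and -0.14, Des -2.12 and -1.18, and Acta2 -0.81 and 0.28. Since Actg2 defines the class, a group difference in smooth muscle genes would be taken up by this term, and the class and the genotype cannot be told apart for them.

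**Figure D5:**
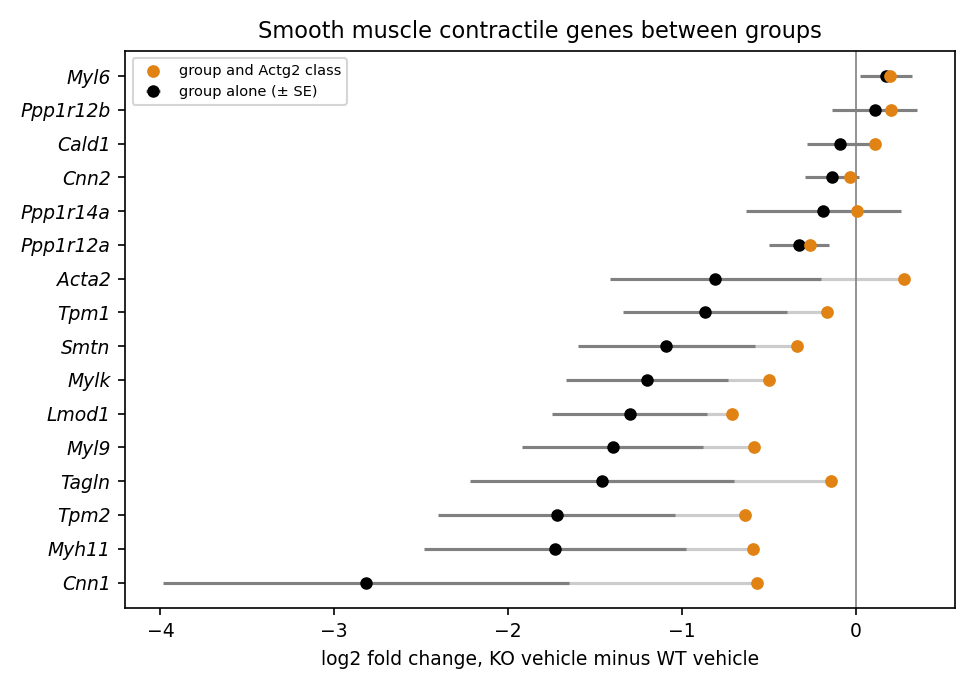
Log2 fold change of the contractile genes between KO vehicle and WT vehicle, with group alone (black points, bars 1 SE) and with the Actg2 class as a further term (orange points, joined by pale lines). With group alone 14 of 16 genes lie below 0 and the median is -0.98; with the class the median is -0.21.

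For KO Treg against KO vehicle, which shares the KO vehicle libraries with the comparison above, edgeR called 1 gene (Dysf, a membrane repair protein of muscle; 0.00821% of 12175) and, with the class, 0 genes, with 1068 and 784 genes at an unadjusted p under 0.05; DESeq2 called 61 without the class. The 1 call was lost with RLE size factors and when any 1 library was left out. The contractile list had 12 of 16 genes above 0 and a median log2 fold change of 0.29, and -0.19 with the class. For KO Treg against WT vehicle, edgeR called 0 genes with or without the class (349 and 341 at an unadjusted p under 0.05), and DESeq2 called 1. Its contractile list had 14 of 16 genes below 0, with a median of -0.72, and -0.68 with the class. These 2 groups each had 3 high libraries, and the class moved the median between them by less than in the comparisons with KO vehicle.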

How the data were processed

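Per the labels' protocols, QuantSeq libraries were sequenced, in which reads come from the ends of transcripts. BWA 0.7.12, SAMtools 1.3.1, TopHat2 2.1.1, HTSeq 0.6.1 and the build mm10 are named in the submitters' processing notes, without their roles; no source used here gives the strand setting. The authors deposited raw counts per gene symbol, 20632 genes per library, of which 4160 were at 0 in all. CPM (counts per 1e6) were counts divided by the library's total. A count of 3, the limit used for detection, is 0.231 to 0.540 CPM. Each library has its own number in its title and was taken as 1 animal; replicate numbers follow accession order.

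Libraries were split at 20 CPM of Actg2. Genes were tested in R 4.3.3 with edgeR 4.0.16 (robust quasi-likelihood, TMM, filterByExpr by group, Benjamini-Hochberg adjustment over all tested genes), with group and class as terms, or group and log2 (CPM + 0.5) of Actg2. TMM factors were 0.944 to 1.065. DESeq2 1.42.0 and limma 3.58.1, other scalings, filters and terms, and each library left out were alternatives. The members, gene lists and tests were chosen with earlier results of these data known. Genes named were the called genes, up to 6 members of lists with a called gene, a fixed set of markers and the 10 genes most like Actg2; others were chosen after their values were seen, among them the rest of the 31 genes that followed Actg2, Dio2, Pdk4, Cpt1b, Cox7a1 and Otop1. Positions and overlaps came from GENCODE M21. On simulated counts for 12175 genes, the comparison of classes found 64% of the genes altered by a factor of 2 and 94.7% at a factor of 4, and 5.61% of calls were wrong. The simulation drew each gene on its own, without programmes shared among libraries, so these figures need not hold here. In the real libraries Cnn1, at a log2 fold change of 3.76, was not called.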

Additional observations from a re-analysis of the deposited data

Results flagged for a closer look

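In groups of 4, a library was marked where its gap to the nearest other exceeded Dixon's 95% limit as a share of the group's range, which chance passes in about 1 of 20 groups; 13 of 81 combinations of 27 genes and 3 groups passed. Of these, 10 were 1 library, KO vehicle 4, which the Actg2 limit had already set apart as the only high library of its group. Most of the genes were chosen for following Actg2, so the number marked is not read against chance. KO vehicle 4 stood above the others of its group for Actg2 (42.8 CPM), calmodulin-binding Pcp4 (2.70 CPM) and its relative Pcp4l1 (9.36 CPM). It also did so for the glutamate receptor subunit Gria1 (1.66 CPM) and the F-box gene Fbxl22 (7.17 CPM). The same library stood above the others for the adhesion plaque gene Pgm5 (41.0 CPM), for Pdlim3 (17.6 CPM), the myosin gene Myh11 (124 CPM), desmin (51.9 CPM for Des) and calponin (47.8 CPM for Cnn1). KO vehicle 3 was high for Fasn (11800 CPM). Ucp1 was high in WT vehicle 1 (1890 CPM) and KO Treg 2 (43.2 CPM).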

How the results depend on the processing

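For the 7 genes called between the classes, edgeR called 7 with RLE or upper-quartile scaling or the stricter filter, 5 with no filter, 9 with limma voom, 17 with no group term, 11 without the robust fit, 4 with the number series as a term, 2 with a minimum log2 fold change of 1, 31 with continuous Actg2, and DESeq2 called 49. Leaving out 1 library gave 0 to 16: without WT vehicle 1 there were 0, without KO vehicle 1, 2 and 3 there were 3, 2 and 1, without KO Treg 1 or WT vehicle 2 there were 3, and without KO Treg 4 there were 16. Added after the data were seen, leaving out the 3 libraries richest in Ucp1 gave 0 and leaving out the 2 with placental transcripts gave 10, 3 of them lower. The 31 called slopes became 8 to 53 when 1 library was left out, 4 without the 3 libraries richest in Ucp1 and 19 in the lower number series alone; these fits were also added later. KO vehicle against WT vehicle gave 34 genes, 259 with DESeq2, 1 with the class, and 1 to 125 with 1 library left out; the highest was without WT vehicle 4, and 68 were called without KO Treg 1. KO Treg against KO vehicle gave 1, 61 with DESeq2, 0 with the class, 0 with RLE factors, and 0 to 0 with 1 library left out; KO Treg against WT vehicle gave 0, and 1 with DESeq2. Signs turned for Myh11 (-0.13) and Cnn1 (-0.82) between KO Treg and KO vehicle with the class. Without KO Treg 3 they turned between the classes for Rgs5 (-0.10, up to 0.46 without another library) and Fasn (-0.32, up to 1.45). Without the 3 libraries richest in Ucp1 they turned for Pecam1 (-0.013) and Ucp1 (2.62). For Ucp1, a rise follows from the choice of these libraries. The cause of the other turns was not tested. No paired analysis was possible because no replicate number in the titles is shared between groups. Fewer low than high libraries, and counts of 0 to 3 in the low class for Pcp4, Gria1 and BC051019, limit the precision of their ratios.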

Other observations

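For 14 of 12174 genes (0.115%) all high-Actg2 libraries lay below the low ones, and edgeR called none of them. This share was not compared with chance and is not read as a result about its members. Among them were 3 genes of fat cells, named here after their values were seen. Of the 16 tested adipocyte genes, 7 had a log2 fold change above 0 and 9 below. Fabp4, the fatty acid binding protein of adipocytes, read 32980 to 36060 CPM in the low and 19070 to 31060 CPM in the high class, a log2 fold change of -0.38 ± 0.15 (SE; adjusted p = 0.999). Arxes1, an adipocyte gene, averaged 221 CPM in the low and 134 CPM in the high class, and Eci2, an enzyme of fatty acid oxidation, 123 and 103 CPM. Ppara, the receptor that activates fatty acid oxidation genes, had a log2 fold change of -1.62 ± 0.37 (adjusted p = 0.347) and Acadl, an acyl-CoA dehydrogenase, -0.77 ± 0.18 (adjusted p = 0.248), with overlapping classes for both. WT vehicle 1 and KO vehicle 2, the libraries richest in Ucp1, were the highest for both genes (135 and 80.0 CPM of Ppara, 779 and 544 CPM of Acadl), and the part of this in the differences was not tested.

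The steroid receptor genes Pgr and Esr1 of the uterine list, named after their values were seen, lay higher in the high-Actg2 libraries without being called. Of the 12 tested genes of this list, 9 were above 0 and 3 below, with a median log2 fold change of 0.11. Without the 3 libraries richest in Ucp1, 5 of the 12 were above 0, with a median of -0.05. Pgr, the progesterone receptor, ran from 0.599 to 2.42 CPM in the low and from 2.39 to 11.9 CPM in the high class, a log2 fold change of 1.81 ± 0.58 (SE; adjusted p = 0.901, edgeR). Esr1, the estrogen receptor alpha, ran from 65.6 to 102 CPM and from 90.7 to 116 CPM, with 0.44 ± 0.15 (adjusted p = 0.901). Both pairs of ranges overlapped.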
